A study of Nematostella vectensis with 16 samples.

Results

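Cadmium against control was read in 7 RNA sequencing libraries of whole anemones of the species Nematostella vectensis, the starlet sea anemone, a burrowing relative of corals from brackish marshes, out of 16 libraries in the series. The 3 Cd libraries came from pools of 5 anemones held for 24 h with cadmium chloride at 100 µg/L, and the 4 control libraries from untreated pools. All animals were 2 to 4 months old and lived in the dark at 18 °C in artificial seawater of 12.5 ppt. The other 9 libraries, 3 each from pools exposed to zinc, copper or mercury chloride at 100 µg/L for 24 h, entered the estimate of the spread between pools and served for comparison. The labels give no genotype, sex, feeding state or batch, and 1 dose and 1 time were used. Libraries were chosen by their labels alone, and all 27273 gene models were read.

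Cadmium has no known role in most animals. It binds sulphur groups of proteins and of glutathione, a small peptide that protects cells from oxidation, and it can take the place of zinc in proteins. Animal cells commonly answer it with metal-binding, antioxidant and heat shock proteins. The gene models are listed by identifier alone, without names, and 0 of them matched a RefSeq table of the species, so no gene could be given a function, and neither the tissue nor any of these pathways could be checked by marker genes. Each library is a pool of whole animals, in which fewer cells of a type and less RNA per cell cannot be told apart.

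The Cd libraries held 6231582 to 7603413 counts and the control libraries 5517015 to 7643452, so that a level of 1 CPM (counts scaled to a common library size by TMM) stood for 6.04 to 7.77 counts in Cd and 5.68 to 6.91 in controls. A count was found for 20272 to 20430 gene models in Cd libraries and for 20134 to 20415 in controls. Of all gene models 16276 passed the filter on low counts, and these held 99.8% of the counts of the 7 libraries. Pools of one group differed by more than counting error in both groups: the chi-square of their counts over genes, divided by its degrees of freedom, was 9.02 to 10.2 between Cd pools and 4.94 to 14.1 between controls.

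Libraries of one group stood apart in 3 sets of genes that varied together between pools. A set of 198 genes summed to 2680, 532 and 309 CPM in Cd 1 to 3, against 1700, 1470, 566 and 527 CPM in controls 1 to 4, so that Cd 1 resembled controls 1 and 2. A set of 20 genes summed to 21.4, 693 and 39.4 CPM in Cd pools, against 57.6, 26.5, 4150 and 1050 CPM in controls. A set of 60 genes summed to 52.6, 61.1 and 51.1 CPM in Cd pools, against 55.5, 41.8, 816 and 849 CPM in controls, high in controls 3 and 4 and in no Cd pool. Outside these groups Cu 3 had 291 CPM in this set, and the other pools of Zn, Cu and Hg had 44 to 62.2 CPM. The gene that led this set was chosen for a lower level in Hg pools than in controls. High levels in controls were thus partly selected for in this set. The labels give no batch that could separate these libraries, and their part in the results was not tested beyond the values given with each of them.

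**Figure D1:**
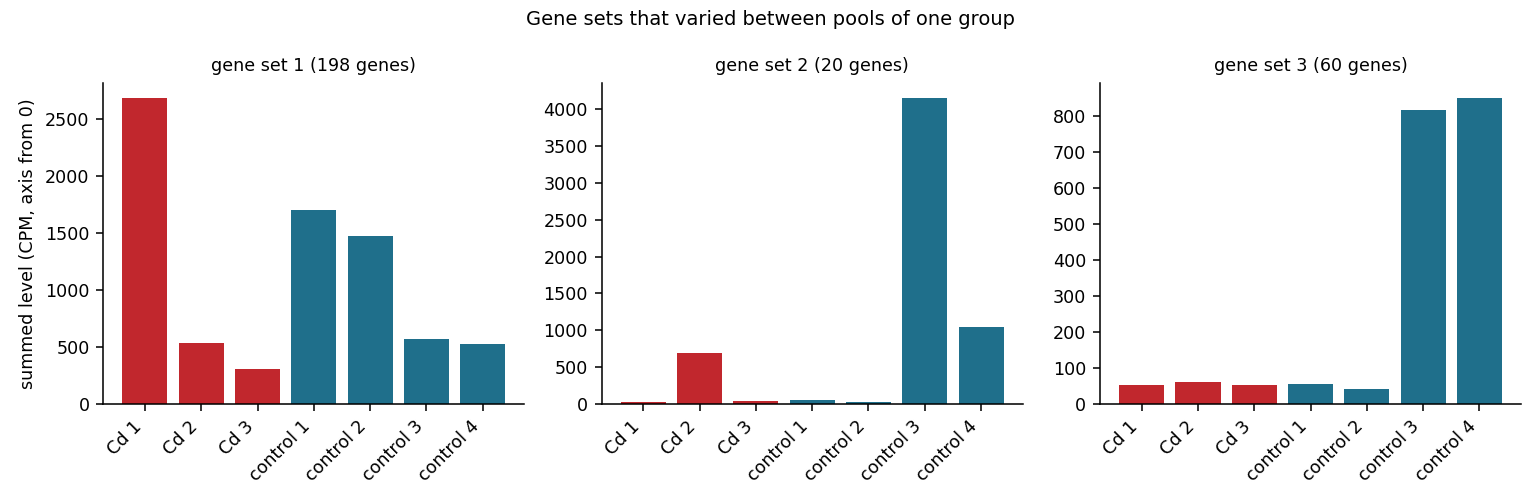
Summed level in CPM (axes from 0) of the 3 gene sets in each Cd library (red) and each control library (blue). The set of 60 genes stands at 816 and 849 CPM in controls 3 and 4 and at 41.8 to 61.1 CPM in the other 5 libraries.

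Few transcripts passed the test at this dose and time, and nearly all of the strongest signals were increases. In Cd pools 3 of 16276 genes were higher than in controls, 0.0184% of those tested, and 0 genes were lower, 0% of those tested (quasi-likelihood test of edgeR, with p-values adjusted by Benjamini-Hochberg, under 0.05). Before adjustment 1144 genes (7.03%) had a p under 0.05, of which 593 were higher (3.64%) and 551 lower (3.39%). DESeq2 called 19 genes higher and 1 lower. The count also depended on the control libraries, and with controls 3 and 4 alone edgeR called 47 higher and 265 lower. Among the 20 genes with the lowest p, 19 were higher in Cd and 1 was lower. In 593 genes (3.64%) all Cd libraries lay above all controls, and in 451 genes (2.77%) all lay below.

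**Figure D2:**
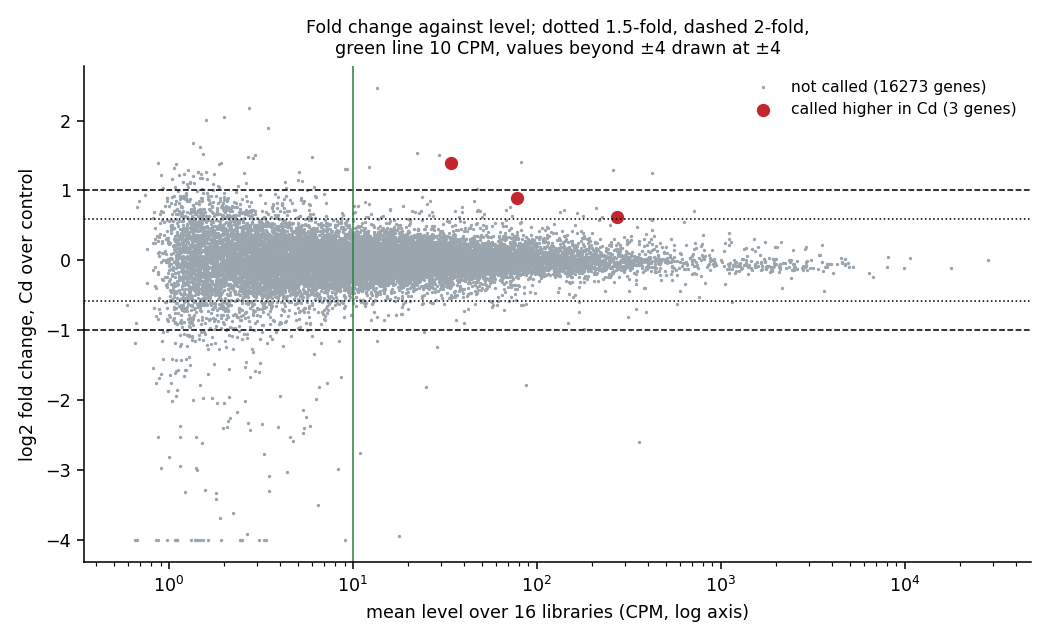
Log2 fold change of Cd over control for each of 16276 tested genes (points), against the mean level over all 16 libraries on a log axis, with 25 genes beyond a size of 4 drawn at that limit. The 3 called genes (red) lie at log2 fold changes of 0.62, 0.89 and 1.39, and the cloud narrows towards high levels, where few points reach the dashed lines at 2-fold.

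The called gene with the largest change was v1g39805. It measured 40.1, 29.4 and 35.5 CPM in Cd pools 1 to 3, against 11.1, 14.6, 14.3 and 13.5 CPM in controls 1 to 4. The lowest Cd pool stood at about the double of the highest control, and the groups did not overlap. The log2 fold change was 1.39 (standard error, SE, 0.21), with a 95% interval of 0.94 to 1.84 (adjusted p = 0.0362, edgeR).

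The gene with the smallest p was v1g28119. It measured 57.6, 59.3 and 48.2 CPM in Cd pools, against 30.5, 32.5, 28.2 and 27.3 CPM in controls. All Cd pools lay above all controls. The fitted log2 fold change was 0.89 (SE 0.12), with a 95% interval of 0.65 to 1.14 (adjusted p = 0.00895, edgeR).

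For v1g167250, the most counted of the called genes, the Cd pools had 164, 161 and 183 CPM, against 104, 102, 112 and 123 CPM in controls. The groups again did not overlap, and each was narrow. The log2 fold change was 0.62 (SE 0.09), with a 95% interval of 0.43 to 0.82 (adjusted p = 0.0235, edgeR).

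A pair of genes just outside the threshold had fitted changes as large as that of v1g39805, and they are given here after their values were seen. v1g231776 measured 24.7, 19.1 and 25.9 CPM in Cd pools, against 8.4, 7.56, 7.58 and 8.45 CPM in controls, a fitted log2 fold change of 1.54 (SE 0.26; adjusted p = 0.0913, edgeR). All Cd pools lay far above 4 nearly equal controls. Its 3 Hg pools, which enter the shared estimate of spread, had 52.5, 18.8 and 29.4 CPM. In a fit of the 7 Cd and control libraries alone it was called (SE 0.15, edgeR adjusted p = 0.0106), together with v1g39805 (edgeR adjusted p = 0.0126), and v1g28119 and v1g167250 were not (edgeR adjusted p = 0.051 and 0.205).

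v1g244653 measured 59.1, 77.1 and 52.5 CPM in Cd pools, against 17.2, 31.7, 28.7 and 17.8 CPM in controls. The groups did not overlap, while controls differed among themselves more than in the genes above. The log2 fold change was 1.40 (SE 0.22; adjusted p = 0.0642, edgeR).

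The authors' deposited table gave 7 genes higher and 1 lower in Cd at an adjusted p under 0.05. It holds v1g39805, v1g28119, v1g231776 and v1g244653 with folds of 2.61, 1.85, 2.9 and 2.63 in the authors' deposited table, and 2 of its 8 genes were also called here. In all 8 the Cd and control libraries did not overlap, and in 7 the 95% interval computed here left out 0. The deposited p-values that chose these genes compare the same libraries, so both counts are a description. Of all tested genes, 3.64% had all Cd libraries above all controls and 2.77% had all below. The 1 gene lower in the authors' deposited table, v1g134602, had a fold of 0.224 there.

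In the counts v1g134602 measured 1.16, 1.3 and 0.644 CPM in Cd pools (21 counts in all), against 6.66, 3.22, 4.05 and 4.49 CPM in controls (115 counts). Its fitted log2 fold change was -2.18 (SE 0.93; adjusted p = 0.69, edgeR). It varied within other groups: the Hg pools had 0, 5.05 and 2.43 CPM and the Zn pools 0.975, 0.639 and 3.94 CPM.

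Among well counted genes, those with a mean of at least 10 CPM over all libraries, the pair with the lowest p below control were v1g230299 and v1g119563. v1g230299 measured 18.9, 20.3 and 17.6 CPM in Cd pools, against 21.3, 27.3, 28.5 and 29.8 CPM in controls (log2 fold change -0.50, SE 0.12; adjusted p = 0.358, edgeR). v1g119563 measured 74.5, 80.6 and 77.9 CPM in Cd pools, against 90.1, 94.2, 109 and 106 CPM in controls (log2 fold change -0.36, SE 0.09; adjusted p = 0.428, edgeR). In both the groups did not overlap, and neither passed the test.

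**Figure D3:**
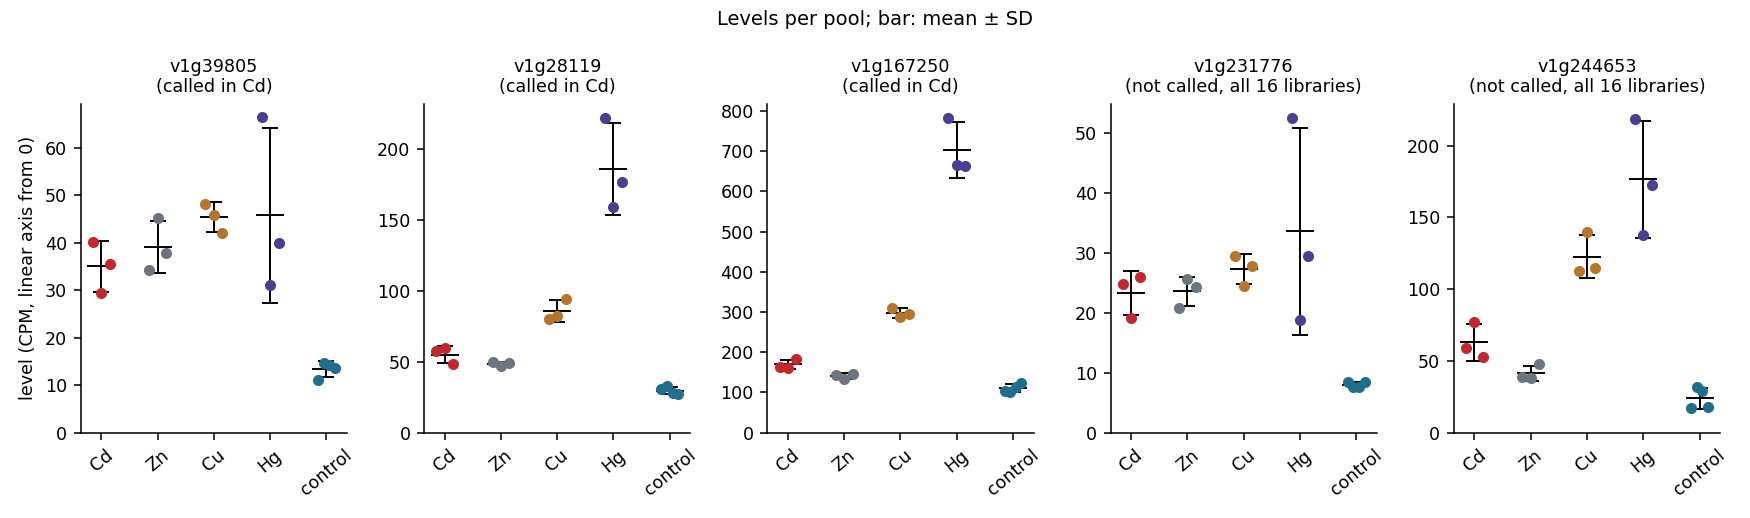
Levels in CPM on linear axes for the 3 called genes and for v1g231776 and v1g244653, with 1 point per pool and bars at the mean ± SD of Cd, Zn, Cu and Hg (3 pools each) and control (4 pools). Every Cd pool lies above every control in all 5 genes. In v1g28119, v1g167250 and v1g244653 the Cd pools lie below the Cu and Hg pools.

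The called genes were also read in pools of the other metals, by contrasts of group levels that leave the control levels out, although the controls enter the shared estimate of spread. v1g28119 averaged 55 ± 6 CPM in Cd pools, against 48.7 ± 1.4 CPM in Zn, 85.5 ± 7.7 CPM in Cu and 186 ± 32 CPM in Hg pools (SD, n = 3 each). It was lower in Cd than in Cu (log2 fold change -0.64, SE 0.12; adjusted p = 0.0047, edgeR) and than in Hg (-1.76, SE 0.12; adjusted p = 6.28e-09, edgeR). Against Zn its 95% interval was -0.08 to 0.43 (edgeR adjusted p = 1). v1g167250 averaged 170 ± 12 CPM in Cd, against 140 ± 7.1 in Zn, 298 ± 12 in Cu and 703 ± 69 in Hg pools (CPM, SD, n = 3 each). The log2 fold change of Cd was -0.81 against Cu (SE 0.10, adjusted p = 6.65e-05, edgeR) and -2.05 against Hg (SE 0.10, adjusted p = 1.28e-10, edgeR). Against Zn it was 0.28, with a 95% interval of 0.07 to 0.48, and was not called after adjustment. Both genes thus stood lower in Cd than in Cu or Hg pools. Over all genes, 0.375% were higher and 2.16% lower in Cd than in Cu, and 9.97% were higher and 14.2% lower in Cd than in Hg (adjusted p under 0.05, edgeR).

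v1g39805 had another pattern, with 35 ± 5.4 CPM in Cd, 39.1 ± 5.5 in Zn, 45.3 ± 3.1 in Cu and 45.8 ± 18 in Hg pools (CPM, SD, n = 3 each). No contrast of Cd with another metal was called for it, and the 95% intervals of the log2 fold change were -0.61 to 0.28 against Zn, -0.82 to 0.07 against Cu and -0.83 to 0.06 against Hg (edgeR adjusted p = 1, 0.536 and 0.212). The intervals leave room for a level in Cd pools down to 0.566 times that in Cu pools. v1g244653 was lower in Cd than in Hg (log2 fold change -1.49, SE 0.22, adjusted p = 0.000162, edgeR) and than in Cu (-0.96, SE 0.22, adjusted p = 0.033, edgeR). Against Zn its log2 fold change was 0.60, with a 95% interval of 0.11 to 1.09, and was not called after adjustment.

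How large a change the data leave possible was read from the 95% interval of each gene's log2 fold change. The end of the interval farther from 0 is called the upper bound, and it applies to either direction. Levels are relative to the library after TMM scaling, so a shift in RNA shared by most genes is not bounded. Over the 8979 well counted genes, which held 96.55% of the counts, the median upper bound was 1.32-fold and the 95th percentile 1.89-fold. The whole interval lay inside 1.5-fold for 7277 genes (81%), inside 2-fold for 8620 (96%) and inside 1.2-fold for 1115 (12.4%). The 7277 genes took 85.3% to 86.5% of all counts in Cd libraries and 85.2% to 86.6% in control libraries. A test of equivalence, with 2 one-sided tests per gene on the same fit, placed 7667 well counted genes (85.4%) inside 1.5-fold and 8720 (97.1%) inside 2-fold at a Benjamini-Hochberg adjusted p under 0.05. It placed 0 genes (0%) inside 1.2-fold. The bounds hold gene by gene. With intervals widened to hold jointly for all well counted genes, an alternative added once results were known, 258 (2.87%) lay inside 1.5-fold, 4645 (51.7%) inside 2-fold and 8361 (93.1%) inside 4-fold.

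The median bound narrowed with the level up to 1000 CPM and not beyond. From 1 to 10 CPM the median upper bound was 1.79-fold over 7200 genes, of which 20.6% lay inside 1.5-fold and 63.6% inside 2-fold. From 10 to 100 CPM it was 1.33-fold over 7572 genes, with 79.7% and 96% inside these limits. From 100 to 1000 CPM it was 1.25-fold over 1241 genes, with 87.6% and 95.7% inside, and at 1000 CPM or more it was 1.27-fold over 166 genes, with 92.8% and 97% inside. In the 97 tested genes under 1 CPM the median bound was 4.67-fold, and 0 lay inside 2-fold. A 2-fold change was thus not excluded for 2624 of the genes from 1 to 10 CPM and for the 97 under 1 CPM.

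The median size of the fitted log2 fold change over well counted genes was 0.105, and 86.6% of them had a fitted change under 1.2-fold. Between single libraries the median size of the log2 difference was 0.162 to 0.235 over the 12 pairs of a Cd with a control library, 0.153 to 0.187 over the 3 pairs of Cd libraries and 0.141 to 0.21 over the 6 pairs of controls. Cd 1 with control 3 were the most distant pair and controls 3 and 4 the closest.

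The 2 gene models with the most counts each had an SE of 0.14, where the median over well counted genes was 0.134. v1g247215 averaged 28800 ± 3000 CPM in Cd pools (SD, n = 3) and 28600 ± 5100 CPM in controls (SD, n = 4), with a 95% interval of the log2 fold change of -0.28 to 0.30 (edgeR adjusted p = 1). v1g235103 averaged 16900 ± 1000 CPM in Cd pools (SD, n = 3) and 18300 ± 2600 CPM in controls (SD, n = 4), with an interval of -0.41 to 0.18 (edgeR adjusted p = 0.933). Of the 166 genes with at least 1000 CPM, 124 had a fitted value below 0 and 42 above, with a median log2 fold change of -0.07. That side depended on 1 library: without control 1, 46 lay below 0 and 120 above, with a median of 0.04, and with controls 3 and 4 as the only controls 60 lay below and 106 above.

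**Figure D4:**
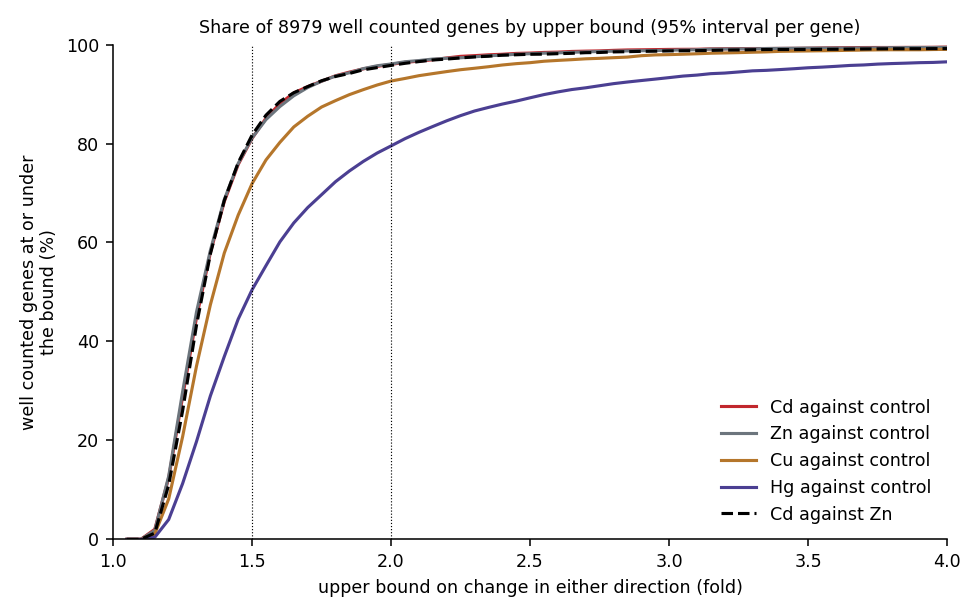
Share of the 8979 well counted genes (vertical axis, percent) whose upper bound on change lies at or under the fold on the horizontal axis, for each metal against control and for Cd against Zn (dashed). At 1.5-fold the curves stand at 81% for Cd, 81.1% for Zn, 71.9% for Cu, 50.4% for Hg and 81.7% for Cd against Zn.

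Of the well counted genes 18 had a fitted change of at least 2-fold, 10 higher and 8 lower. In 12 of them the Cd and control libraries overlapped, and 1 was called, v1g39805. Over all 8979 well counted genes the libraries overlapped in 8346, and 3 were called. The 18 were chosen by size in these same libraries, so the counts are a description. The whole interval lay beyond 1.5-fold for 6 genes (4 higher, 2 lower) and beyond 2-fold for 0 genes. The interval was not inside 2-fold for 359 well counted genes, among them all 28 well counted genes of the 3 sets that varied between pools. Those sets were picked for a wide spread between pools, which favours wide intervals, and 331 of the 359 genes belong to no set. For 288 of the 359 the interval covered 0. Their median SD of log2 CPM over all 359, which a wide interval selects for, was 0.564 between Cd pools and 0.51 between controls. All well counted genes had 0.143 and 0.169. The library with the highest level among the 7 was Cd 1 for 81 of the 359 genes, Cd 2 for 59, control 3 for 57 and control 4 for 48, and other libraries for 35 to 43 each.

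The other metals set a scale for these bounds, with the same number of pools and the same controls. The median standard error over well counted genes was 0.134 for Cd, Zn and Hg and 0.135 for Cu, while 95% of fitted log2 changes were under 0.382 in size in Cd, 0.39 in Zn, 0.626 in Cu and 1.3 in Hg. Of 596 well counted genes that rose at least 2-fold in Hg (edgeR adjusted p under 0.05), 439 (73.7%) had a Cd interval inside 1.5-fold and 561 (94.1%) inside 2-fold. Their median log2 fold change was 0 in Cd and 1.39 in Hg, and 583 of them were lower in Cd than in Hg by the direct contrast, in which 14.2% of all genes were called lower in Cd. Both comparisons with control share the control libraries, and the direct contrast uses the Hg libraries that chose these genes, so the counts are a description. Of 102 well counted genes that rose at least 2-fold in Cu, 46 (45.1%) had a Cd interval inside 1.5-fold and 86 (84.3%) inside 2-fold. Their median log2 fold change was 0.11 in Cd and 1.29 in Cu. By direct contrast 85 were lower in Cd than in Cu, where 2.16% of all genes were called lower in Cd. Over all 8979 well counted genes 81% lay inside 1.5-fold and 96% inside 2-fold, and 3 were called in Cd. These 3 are among both the 596 genes that rose in Hg and the 102 that rose in Cu. Of 172 well counted genes that fell at least 2-fold in Hg, 75 (43.6%) had a Cd interval inside 1.5-fold and 134 (77.9%) inside 2-fold, with a median log2 fold change of -0.08 in Cd and -1.27 in Hg. Of the 18 that fell at least 2-fold in Cu, 0 lay inside 1.5-fold in Cd and 6 (33.3%) inside 2-fold, with a median of -0.60 in Cd and -1.17 in Cu, and 3 differed between Cd and Cu by the direct contrast.

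The comparison of Cd with Zn leaves out the control levels, although the controls enter the shared estimate of spread and the filter. Between Cd and Zn pools 0 genes were called, 0% of those tested (edgeR), with 599 (3.68%) at an unadjusted p under 0.05 and 0 called by DESeq2. The 95% interval of Cd over Zn lay inside 1.5-fold for 7337 well counted genes (81.7%) and inside 2-fold for 8601 (95.8%), and the median size of the log2 fold change was 0.0927. A fit of the Cd and Zn libraries alone called 0 genes as well and had 7429 genes (82.8%) inside 1.5-fold. The 378 remaining well counted genes could differ by more than 2-fold between the metals in these data.

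The number of genes called in Cd turned on which controls were used. With controls 3 and 4 as the only controls 47 genes were called higher and 265 lower, and with controls 1 and 2 as the only controls 0 and 0 (edgeR), with 435 higher and 260 lower at an unadjusted p under 0.05. The 265 genes lower against controls 3 and 4 included 48 of the set of 60. Of these 265 genes 237 were also in the fit of all libraries, and their median log2 fold change was -0.95 against controls 3 and 4. Against controls 1 and 2, 205 of the 237 could be fitted, with a median of -0.06, and 124 of the 205 were lower there as well. For the 47 genes higher the medians were 0.64 against controls 3 and 4 and 0.18 against controls 1 and 2, and 40 of the 47 were higher in both settings. Both settings use the same Cd libraries.

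Counts of calls were also higher when the libraries with high levels of the set of 198 genes were left out. Without Cd 1 and controls 1 and 2, 15 genes were called higher and 91 lower. Without those 3 and the 1 library each of Hg, Cu and Zn that was high in that set, a setting chosen with earlier results known, 23 were higher and 147 lower (edgeR). Cd 1 was then set against controls 1 and 2, none of which had a part in those calls. With 1 library in the Cd arm this has no measure of spread, and genes that vary together are not independent, so the shares that follow describe these 3 libraries and are no test. Of the 23 genes called higher 19 (82.6%) were higher in Cd 1, against 48.1% of genes not called. Of the 147 called lower 131 could be compared, and 92 (70.2%) were lower in Cd 1, against 51.9% of genes not called, with a median log2 difference of -0.18 where the 10 libraries of the calls had -1.21. In these 131 genes controls 3 and 4 stood a median of 1.27 log2 units above controls 1 and 2, and 54 of them belong to the set of 60.

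**Figure D5:**
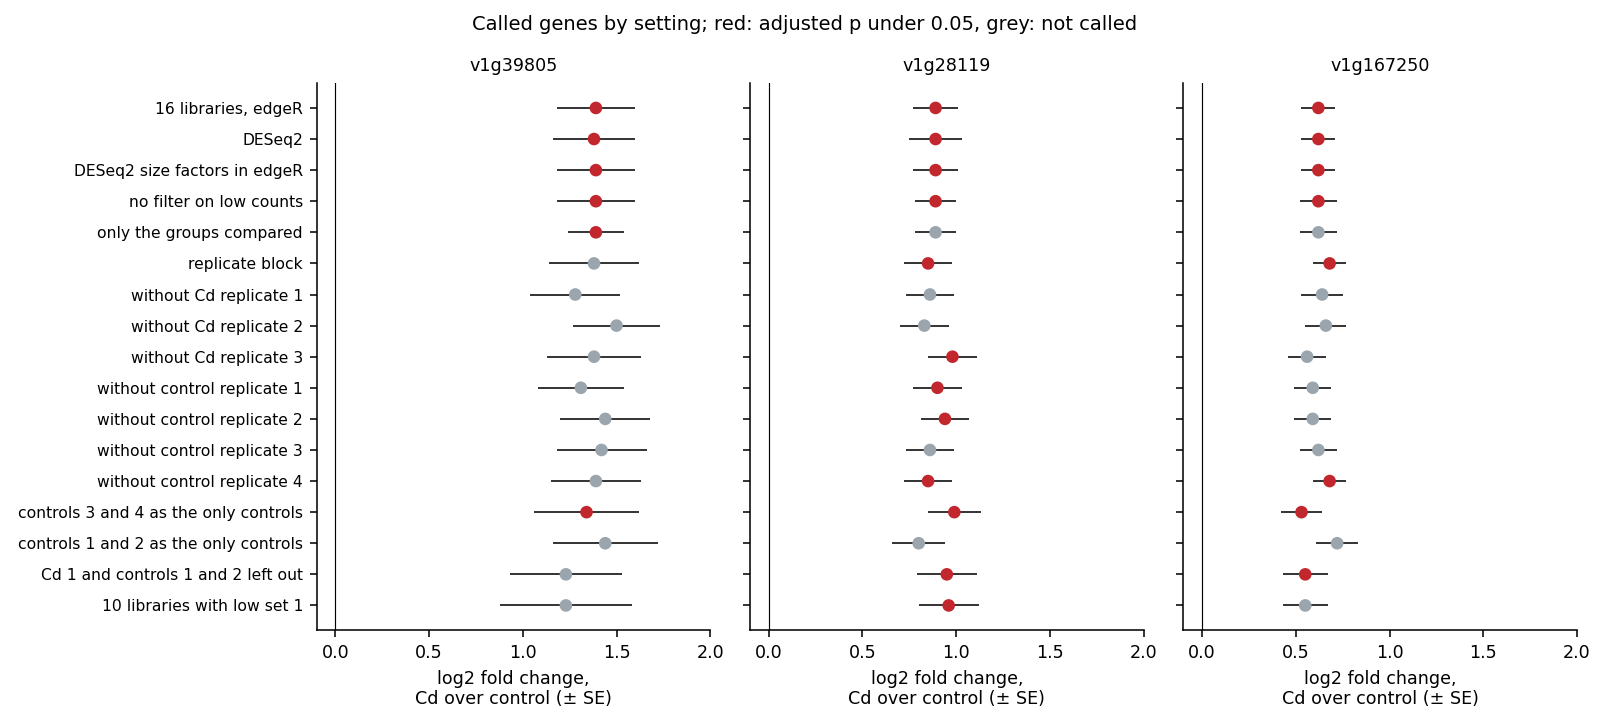
Log2 fold change of Cd over control (points, ± SE) for the 3 called genes under each set of libraries or method, red where the adjusted p was under 0.05. All values lie between 0.53 and 1.5, above 0, and the calls come and go.

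The 3 called genes kept their size in every setting, while their calls did not hold. Over 16 alternative settings the log2 fold change was 1.23 to 1.5 for v1g39805, 0.80 to 0.99 for v1g28119 and 0.53 to 0.72 for v1g167250. They were called in 5, 11 and 7 of the 16 settings. Adjusted p-values (edgeR and DESeq2) ranged from 1.06e-06 to 0.527, from 3.62e-07 to 0.266 and from 3.62e-07 to 0.205. Calls of v1g39805 ended without any 1 Cd or control library. Those of v1g28119 ended without Cd 1, Cd 2 or control 3, and those of v1g167250 without any 1 of these 7 libraries other than control 4. With a replicate block, which takes control 4 out of the contrast, v1g39805 was no longer called (edgeR adjusted p = 0.226).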

How the data were processed

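Per the labels' protocols, total RNA was taken with a Tri-reagent kit and sequenced from TruSeq mRNA libraries. The authors deposited raw counts per gene model, 1 table for each of 4 metals with the same controls. Tools named without version or role, per the submitters' processing notes, are STAR, Partek and DESeq; on strand, read length and genome build the sources used here give nothing. Per the file headers, the Cd table also holds base means per group (a normalized signal), their ratio as a fold change, p-values and adjusted p-values. The deposited adjusted p-value was treated as a score, since it exceeds 1 for 930 genes, all with a fold of 0.

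In R 4.3.3, edgeR 4.0.16 was run with filterByExpr, TMM scaling and 1 robust quasi-likelihood fit of all 16 libraries, with a term per group and no replicate block; p-values were adjusted over all 16276 genes. The 95% interval of each gene rests on its fitted weights and quasi-dispersion, and ± is the SD over pools unless SE is written. Alternatives were DESeq2 1.42.0, its size factors, limma 3.58.1 (voom), no filter, only the groups compared, a replicate block, libraries left out and other limits for well counted genes (5 and 50 CPM). The fit was tested on simulated data, in which each gene was drawn independently. Those data hold no genes that vary together between pools, so the test says nothing on such sets.

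Gene sets came from deviations of log2 CPM (prior count 2) from group means: genes with a correlation above 0.8 to a leading gene and an SD above 0.5. For the sets of 198 and 20 genes the leading gene was picked from these deviations. For the set of 60 it was the gene called in Hg against control with the lowest log2 fold change. The controls thus had a part in that choice. Named genes were those called, the 2 well counted genes below control with the lowest p, the 2 with the highest mean CPM and the gene lower in the authors' deposited table; others were added after values were seen. The comparison, settings and lists were chosen with earlier results of these data known. Of the identifiers, 0 matched a RefSeq table of 38762 genes (assembly jaNemVect1.1).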

Additional observations from a re-analysis of the deposited data

How the results depend on the processing

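The number of well counted genes inside 1.5-fold was 6475 to 7149 when 1 library was left out and 7292 with limma voom intervals. It was 5852 with controls 3 and 4 as the only controls, 5640 without Cd 1 and controls 1 and 2, 5683 in the 10 libraries with low levels of the first gene set and 6650 with controls 1 and 2 as the only controls. With a mean of at least 50 CPM, 2462 of 2790 genes (88.2%) lay inside 1.5-fold and 2692 (96.5%) inside 2-fold, and 2531 passed the equivalence test, fewer because fewer genes qualify. Joint 95% intervals gave 258 inside 1.5-fold and 4645 inside 2-fold. Genes called higher in Cd numbered 19 by DESeq2, 0 in the test for a change of more than 1.2-fold, which called 0 lower as well (410 at an unadjusted p under 0.05 in both directions together), and 0 to 2 when 1 library was left out. Leaving out Cd 1, Cd 2 or control 3 left 0 (469, 602 and 434 higher at an unadjusted p under 0.05), and leaving out Cd 3 or control 1 left 1. They were 47 with controls 3 and 4 as the only controls, 0 with controls 1 and 2, 15 with Cd 1 and controls 1 and 2 left out, and 23 in the 10 libraries. Genes called lower in these last settings numbered 265, 0, 91 and 147. DESeq2 called 1 lower, v1g216927, at 19.5 to 22.6 CPM in Cd pools, against 28.7 and 25.7 CPM in controls 1 and 2 and 60.3 and 58.7 CPM in controls 3 and 4. The cause of these differences between settings was not tested. Between Cd and Zn 0 genes were called in any of 11 alternatives, with 6514 to 7429 genes inside 1.5-fold.

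With the replicate number as a block 2 genes were called higher, v1g28119 and v1g167250, and 3 lower, v1g135965, v1g212050 and v1g216383. All 3 belong to the set of 60 genes and had 0 to 2 summed counts in Cd pools, against 86 to 199 in controls. They stood at 5.99 to 16.9 CPM in controls 3 and 4 and at 0.145 to 0.724 CPM in controls 1 and 2. Number 4 occurs in control 4 alone, so its block term fits that library exactly. Control 4 thus adds nothing to this contrast, and of controls 3 and 4 only control 3 had a part in these calls. The log2 fold changes of v1g28119 (0.85) and v1g167250 (0.68) were the same in the block and without control 4. Same-numbered Cd and control libraries deviated together for number 1 (correlation 0.323 across genes) and number 3 (0.125) but not number 2 (-0.044), and Cd 2 correlated best with control 3 (0.261), so that the numbers were not taken as pairs.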

Other observations

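The 19 genes that DESeq2 called higher in Cd, all of them well counted, are described here over the metals. Their edgeR log2 fold changes were 0.33 to 1.54, with 95% intervals that left out 0 in each. Their median log2 fold change was 0.55 in Cd, 0.38 in Zn, 0.39 in Cu and 0.30 in Hg, where the medians over all tested genes were 0, -0.01, -0.02 and -0.05. Against control 10 of the 19 were called higher in Hg, 10 in Cu and 1 in Zn, and 4 lower in Hg (edgeR). Of all 16276 tested genes 2439, 488 and 1 were called higher in these metals, and 1897 lower in Hg. The comparisons with control share the controls, and the Cd libraries that chose the 19 genes enter each contrast of Cd. Intervals off 0 and higher levels in Cd are thus partly selected for, and the counts are a description. By direct contrast 6 were lower and 6 higher in Cd than in Hg, where 14.2% of all genes were lower and 9.97% higher. In Cd against Cu 5 were lower and 1 higher, where 2.16% of all genes were lower and 0.375% higher, and 0 differed between Cd and Zn, where 0% of all genes did (edgeR adjusted p under 0.05).

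Few gene models were counted in 1 group alone. In 24 gene models all 3 Cd libraries had counts and no control library had any, with at most 7 counts summed over the Cd libraries, and 0 of them passed the filter on low counts. In 13 gene models all 4 control libraries had counts and no Cd library had any. Of these 3 passed the filter, with up to 86 counts summed over the controls, and 0 were called (edgeR). The 3 genes, v1g135965, v1g208146 and v1g81530, belong to the set of 60. They had 28 to 50 counts in each of controls 3 and 4 and 1 to 3 in each of controls 1 and 2.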
